A study of Mus musculus with 6 samples.

Results

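Voltage-gated calcium channel subunit genes were examined by RNA-seq in the primary somatosensory cortex of C57BL/6 mice aged 14 days. β-catenin overexpression (Ovp) cortex came from mice with the β-cat lox(ex3) allele and Nex-Cre, and Ctrl cortex from mice with the β-cat lox(ex3) allele alone, so every animal carried the floxed allele. The allele lets Cre remove exon 3 of the β-catenin gene Ctnnb1, which stabilises the protein, and Nex-Cre acts mainly in excitatory neurons of the forebrain, so most interneurons, glia and vessel cells in the dissected tissue keep an unrecombined allele. Only Ovp mice carried Nex-Cre, so effects of Nex-Cre itself and of stabilised β-catenin cannot be told apart. Each group had 3 libraries. Whether these were separate animals is not in the labels, and p-values then reflect no more than the spread between libraries, which may be technical. The 10 genes were chosen by name among 47794 genes in the deposited table, and all 10 had a value in both groups. They were the pore genes Cacna1a, Cacna1b, Cacna1c, Cacna1d, Cacna1e, Cacna1g, Cacna1h and Cacna1i, and the α2δ genes Cacna2d1 and Cacna2d3.

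A voltage-gated calcium channel opens when the membrane depolarises and lets calcium into the cell. Its pore and voltage sensors lie in 1 large α1 protein, which names the current: L-type, P/Q-type, N-type and R-type channels need a strong depolarisation, and T-type channels open close to the resting potential. L-, P/Q-, N- and R-type pores work with a β subunit in the cytoplasm and an α2δ subunit outside the cell, which help the channel reach the membrane. In cortical neurons P/Q- and N-type channels trigger transmitter release, L-type channels signal to the nucleus, and T-type channels support burst firing.

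For each gene the authors deposited 1 value per group, a mean of scaled read counts with no spread, so no SD or n accompanies it. Summed over genes, the Ovp column held 18602579 scaled reads and the Ctrl column 19016749. Excitatory neuron markers were abundant, with the vesicular glutamate transporter Slc17a7 at 30449 in Ovp and 31689 in Ctrl cortex. In bulk tissue, fewer cells of a type and less RNA per cell cannot be told apart.

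None of the 10 subunit genes differed between the groups at an adjusted p under 0.05 in the authors' deposited table, where 0% of 30152 tested genes passed. Each of the 10 had an adjusted p of 1 there. Without adjustment, 0 of 10 had p under 0.05, beside 0.534% of all tested genes in the authors' deposited table. Ovp means were higher for 5 genes and lower for 5. Of genes whose mean was 100 or more, 57.8% had the lower value in Ovp cortex. Fold changes are log2 of the Ovp mean over the Ctrl mean, and the 10 ran from -0.22 for Cacna1i to 0.19 for Cacna1d. Their median was -0.0025, beside -0.0175 for genes whose mean was 100 or more. Among the 2799 genes with a mean between 1435 and 8320, the range of the subunit genes, 1999 had the lower value in Ovp cortex and the median was -0.0365.

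**Figure D1:**
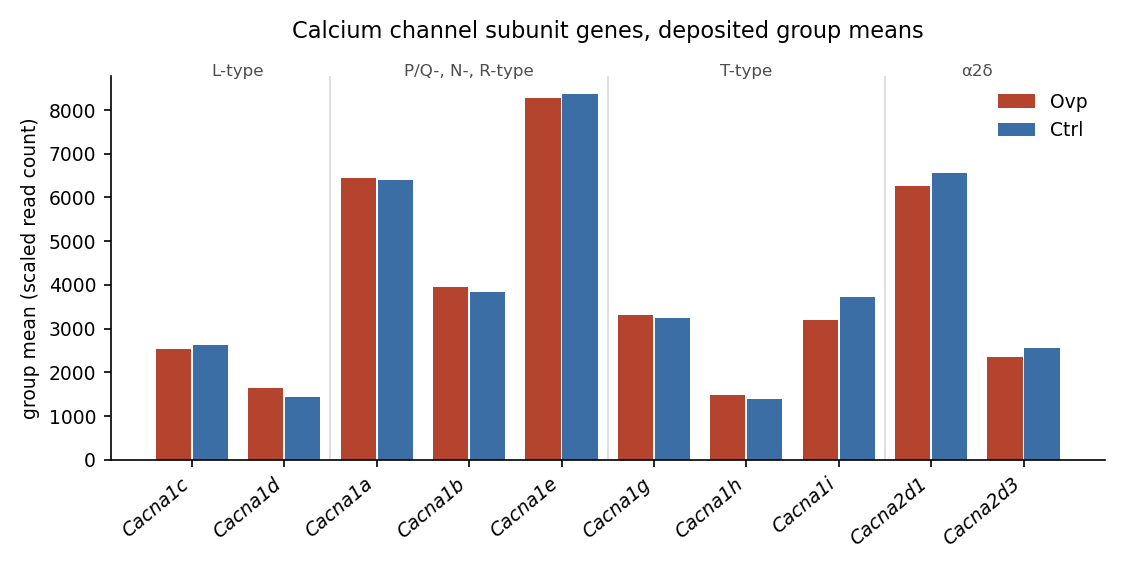
Deposited group means (scaled read count, 1 bar per gene and group, no spread available) of the 10 subunit genes, ordered by channel class. Cacna1i, at 3199 in Ovp and 3729 in Ctrl cortex, shows the widest gap.

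The 2 L-type pore genes had fold changes of opposite sign. Cacna1c (ENSMUSG00000051331), the main L-type pore of heart and brain, averaged 2534 in Ovp and 2627 in Ctrl cortex. The log2 fold change was -0.05 and p = 0.78 in the authors' deposited table. Cacna1d (ENSMUSG00000015968), an L-type pore that opens at more negative voltages than Cacna1c channels, had 1648 in Ovp and 1449 in Ctrl cortex. This was the most positive fold change of the 10, a log2 value of 0.19 with an unadjusted p of 0.117 in the authors' deposited table. Among the 2799 genes in the same range of means, 31 (1.11%) had a log2 fold change at least as high as that of Cacna1d. In GENCODE M21, 4.67% of the exon length of Cacna1d overlaps the choline dehydrogenase gene Chdh on the opposite strand, which was at 29.8 in Ovp and 24.4 in Ctrl cortex. The strand setting of the counting is not stated in the sources used here, so reads from that overlap cannot be told apart.

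The 3 pore genes of the P/Q-, N- and R-type channels had close group means, with absolute log2 fold changes of at most 0.05. Cacna1a (ENSMUSG00000034656), the P/Q-type pore of fast transmitter release, was at 6444 in Ovp and 6397 in Ctrl cortex, a log2 fold change of 0.01. Cacna1b (ENSMUSG00000004113), the N-type pore, was at 3964 in Ovp and 3839 in Ctrl cortex, a log2 fold change of 0.05. Cacna1e (ENSMUSG00000004110), the R-type pore, was at 8275 in Ovp and 8365 in Ctrl cortex. Its log2 fold change of -0.02 turned positive, to 0.00194 and 0.0162, when both groups were brought to a common median or a common sum. In the authors' deposited table these 3 genes had p-values between 0.709 for Cacna1b and 0.965 for Cacna1e. For Cacna1a, 3.81% of the exon length overlaps the antisense gene Gm16183, which was at 169 in Ovp and 131 in Ctrl cortex.

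Among T-type pores, Cacna1i stood at the lower end of all 10 genes and its 2 relatives had slightly higher Ovp means. Cacna1i (ENSMUSG00000022416), the T-type pore with the slowest kinetics, averaged 3199 in Ovp and 3729 in Ctrl cortex, which is 14.2% below Ctrl. The log2 fold change was -0.22, and its p of 0.0516 in the authors' deposited table was the smallest of the 10 and passed neither threshold. Of the 2799 genes in the same range of means, 18 (0.643%) had a log2 fold change at least as low. In the authors' deposited table, the smallest absolute log2 fold change with p under 0.05 in that range was 0.23. The largest without p under 0.05 was 0.38, so 0.23 was no cutoff. Cacna1g (ENSMUSG00000020866), a T-type pore known for burst firing in thalamic relay neurons, was at 3316 in Ovp and 3246 in Ctrl cortex, with a log2 fold change of 0.03 and p = 0.824 in the authors' deposited table. Cacna1h (ENSMUSG00000024112), a T-type pore sensitive to block by zinc and nickel, was at 1481 in Ovp and 1390 in Ctrl cortex, with a log2 fold change of 0.09 and p = 0.669 in the authors' deposited table.

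Both α2δ genes had lower Ovp means, and neither passed the threshold. Cacna2d1 (ENSMUSG00000040118), whose protein binds gabapentin, was at 6272 in Ovp and 6549 in Ctrl cortex, a log2 fold change of -0.06 with p = 0.564 in the authors' deposited table. Cacna2d3 (ENSMUSG00000021991), a relative whose protein does not bind gabapentin, was at 2342 in Ovp and 2551 in Ctrl cortex, a log2 fold change of -0.12 with p = 0.288 in the authors' deposited table. For comparison, 269 of the 2799 genes in the same range of means (9.61%) had a log2 fold change at least as low as that of Cacna2d3.

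**Figure D2:**
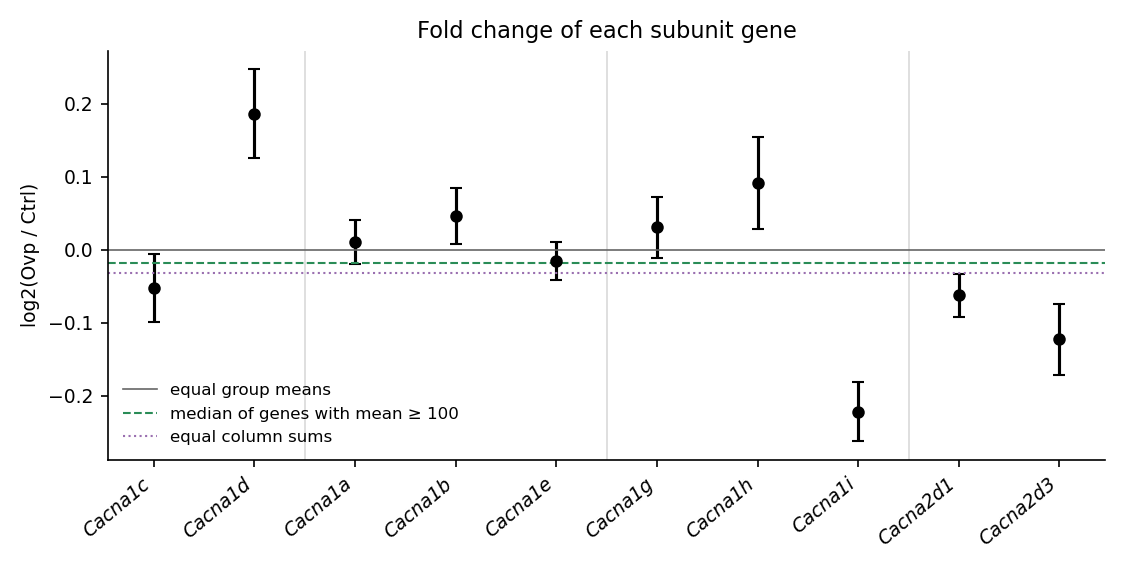
Log2 fold change of each subunit gene (Ovp over Ctrl, points), with bars for the widest 95% counting error that the read depth allows, and lines for equal group means, for the median of genes whose mean was 100 or more, and for equal column sums. Cacna1d (0.19) and Cacna1i (-0.22) lie farthest from all 3 lines, and Cacna1e crosses from below the first line to above the other two.

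The reads behind these means limit how far counting alone could move them. The worth of 1 read in each library could be read from the lowest values of each column, which bounds the reads behind a gene between 3782 for Cacna1h in Ctrl and 30468 for Cacna1e in Ovp cortex. The 95% counting error of a log2 fold change was at most 0.0262 for Cacna1e and 0.0631 for Cacna1h. It was at most 0.0406 for Cacna1i and 0.0608 for Cacna1d, so their fold changes were 5.45 and 3.06 times as large. With the deposited means, the fold changes of Cacna1a, Cacna1e and Cacna1g were within their bounds and those of the other subunit genes were not. This depended on scaling. With both columns scaled to the same sum, Cacna1c came within its bound, at -0.0204. Cacna1a and Cacna1g then went beyond theirs, at 0.0424 and 0.0624. The share of all genes beyond such a bound was not computed. Counting error leaves out the spread between libraries. That spread could be fitted by limma only for genes whose library values were recovered, as described below. Among these, the 1315 genes with the highest means had a median half-width of the 95% interval of 0.236 in log2. Every subunit gene had a smaller absolute log2 fold change than this. The 1315 genes had lower means than the subunit genes, whose own intervals could not be computed.

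The library values of these genes could not be recovered from the group means. Between 6 and 336 combinations of whole reads, with each library within 2-fold of the mean, gave the same deposited value. The smallest SD among those combinations is a lower bound on the spread between libraries. For Cacna1d it was 102 in Ovp and 84.4 in Ctrl cortex, where the means differed by 199. For Cacna1i the bound was 76.4 in Ovp and 113 in Ctrl cortex, where the means differed by -531. For Cacna1h it was 127 in Ovp and 159 in Ctrl cortex, more than the difference of 90.6 between the means, so the Cacna1h means were closer than the spread between libraries. Larger spreads would also give these means, so the bounds do not show that Cacna1d or Cacna1i differed.

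**Figure D3:**
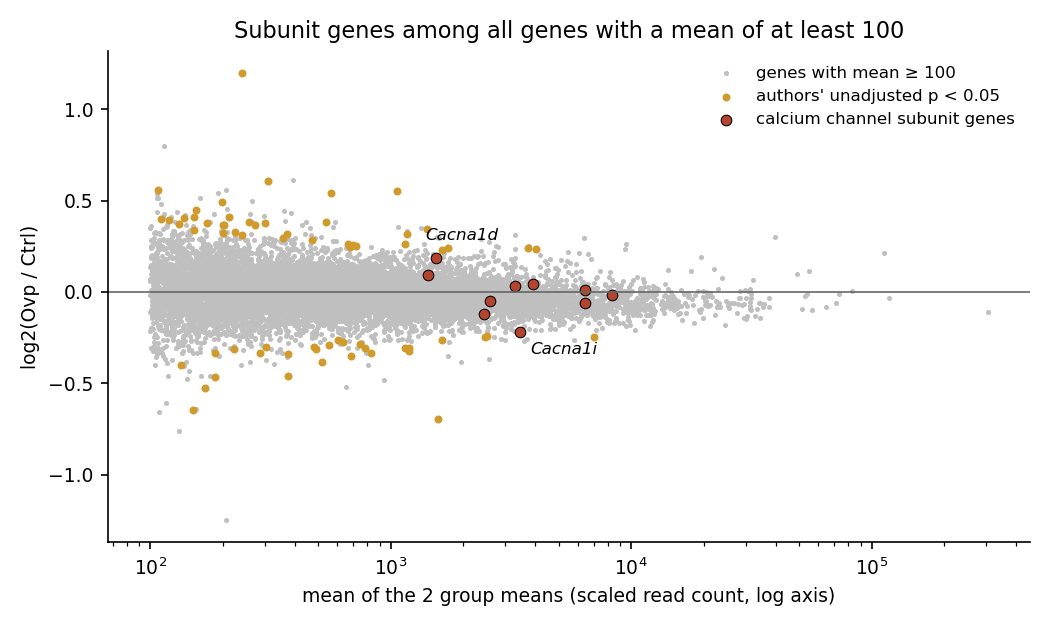
Log2 fold change (Ovp over Ctrl) against the mean of both groups (log axis) for the 11645 genes whose mean was 100 or more (grey), those with p under 0.05 before adjustment in the authors' deposited table (yellow) and the 10 subunit genes (red). The subunit genes lie within the grey band, with Cacna1d near its upper and Cacna1i near its lower edge.

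Read counts grow with transcript length, so levels of different subunit genes were compared per kb of exon (GENCODE M21, GRCm38; the authors' annotation is not given in the sources used here). Cacna1a stood highest, at 564 scaled reads per kb in Ovp and 560 in Ctrl cortex. Cacna2d1 came next, at 505 in Ovp and 527 in Ctrl cortex, and Cacna1b after it, at 399 in Ovp and 386 in Ctrl cortex. Cacna1e, Cacna1g and Cacna1i had per-kb levels of 328, 327 and 324 in Ovp cortex, and 332, 320 and 378 in Ctrl cortex. Cacna2d3 had 269 per kb in Ovp and 293 in Ctrl cortex. The lowest were Cacna1h, at 152 in Ovp and 142 in Ctrl cortex, Cacna1d, at 131 in Ovp and 115 in Ctrl cortex, and Cacna1c, at 120 in Ovp and 124 in Ctrl cortex. With no spread per gene, neighbours in this order could not be set apart.

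The order depended on the length used. Per kb of the longest coding sequence, Cacna2d1 came first at 1895 in Ovp and 1979 in Ctrl cortex. Cacna1e then came second, at 1214 in Ovp and 1227 in Ctrl cortex; its annotated exons span 25228 bases and its coding sequence 6819. Cacna1c, with 21191 bases of exon and 6666 of coding sequence, passed both Cacna1d and Cacna1h, at 380 per coding kb in Ovp and 394 in Ctrl cortex.

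As shares of the summed per-kb level of the 8 pore genes, the P/Q-, N- and R-type genes held 55.1% in Ovp and 54.2% in Ctrl cortex. The T-type genes held 34.3% in Ovp and 35.7% in Ctrl cortex, and the L-type genes 10.7% in Ovp and 10.1% in Ctrl cortex. Within the T-type class, Cacna1i held 40.4% in Ovp and 44.98% in Ctrl cortex. Cacna1g held 40.7% of the class in Ovp and 38.1% in Ctrl cortex, and thus had the larger share of the pair in Ovp cortex and the smaller in Ctrl cortex. Per coding kb, Cacna1i held the larger share in both groups, at 41.9% in Ovp and 46.5% in Ctrl cortex. Within the L-type class, Cacna1d held 52.2% in Ovp and 48.1% in Ctrl cortex, and per coding kb 39.9% in Ovp and 35.99% in Ctrl cortex. These shares are descriptions of the group means and were not tested.

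**Figure D4:**
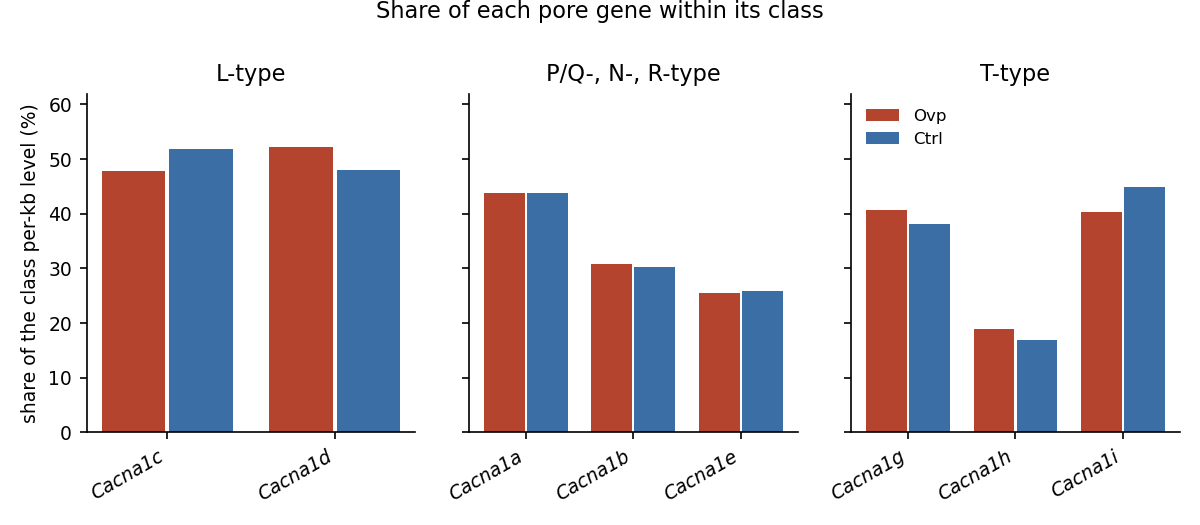
Share (%) of each pore gene in the summed per-kb level of its class, from the deposited group means and GENCODE M21 exon lengths, with 1 bar per gene and group. The widest gaps are those of Cacna1i (40.4% in Ovp, 44.98% in Ctrl) and of the L-type pair Cacna1d and Cacna1c.

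Stabilised β-catenin acts in the nucleus with TCF/LEF factors, which bind the core CTTTGA or CTTTGT on either strand. The 250 bases before the annotated start are therefore shown for the genes with the lowest and the highest fold change, Cacna1i and Cacna1d, with each match to the core in capitals. Sequences are from RefSeq on GRCm38.p6.
Cacna1i, chr15:80286988-80287237, plus strand: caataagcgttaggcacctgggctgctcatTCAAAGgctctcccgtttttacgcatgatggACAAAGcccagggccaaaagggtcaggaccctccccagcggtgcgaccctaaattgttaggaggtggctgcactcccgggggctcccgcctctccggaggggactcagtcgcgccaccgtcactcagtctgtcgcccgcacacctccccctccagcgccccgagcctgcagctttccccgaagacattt
Cacna1d, chr14:30353487-30353736, minus strand: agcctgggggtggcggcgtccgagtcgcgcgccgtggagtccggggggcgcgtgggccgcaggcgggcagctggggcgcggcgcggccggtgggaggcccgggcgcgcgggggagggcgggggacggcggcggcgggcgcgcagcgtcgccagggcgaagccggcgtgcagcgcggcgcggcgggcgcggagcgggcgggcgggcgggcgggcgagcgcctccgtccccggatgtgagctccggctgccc
Cacna1d, chr14:30491157-30491406, minus strand: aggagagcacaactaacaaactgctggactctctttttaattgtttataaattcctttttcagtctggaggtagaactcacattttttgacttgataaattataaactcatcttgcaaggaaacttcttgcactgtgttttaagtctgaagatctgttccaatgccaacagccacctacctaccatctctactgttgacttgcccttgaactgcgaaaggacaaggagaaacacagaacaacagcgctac
The Cacna1i window held 2 matches, both of the core on the minus strand, starting 220 and 189 bases before the start. Neither Cacna1d window held these letters. The first Cacna1d window was 86.4% G or C, the second 39.6% and the Cacna1i window 62.4%. Of 10 windows for 7 subunit genes, 3 held the core, belonging to Cacna1i, Cacna1e and 1 of the 3 starts of Cacna1c. Of 32851 such windows in the table, 27.6% held it. A match is a run of letters and does not show that a factor binds there.

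The other subunits of the same channels gave no call. Of 10 further subunit genes, 0 passed the threshold and 0 had p under 0.05 before adjustment in the authors' deposited table. Of these genes, 3 had higher and 7 lower Ovp means, with a median log2 fold change of -0.06. Of all 30152 tested genes, 15356 had the lower value in Ovp cortex. The β subunit genes, whose proteins bind the pore from inside, had lower Ovp means, with log2 fold changes from -0.105 for Cacnb4 to -0.0007 for Cacnb3. Cacnb3 was at 4422 in Ovp and 4424 in Ctrl cortex, and Cacnb4 at 3701 in Ovp and 3980 in Ctrl cortex. Cacnb1 and Cacnb2, named after their values were seen, were at 2939 and 757 in Ovp cortex, against 3011 and 807 in Ctrl cortex. Another α2δ gene, Cacna2d2, also named after its values were seen, was at 1170 in Ovp and 1075 in Ctrl cortex, the opposite direction to Cacna2d1 and Cacna2d3. Of the 6 stargazin-like γ genes, whose proteins mainly serve AMPA receptors, 4 were higher and 2 lower by their group means. Cacng2 was at 4439 in Ovp and 4365 in Ctrl cortex, and Cacng3 at 3346 in Ovp and 3806 in Ctrl cortex. Cacng5 counted as higher, at 201 in Ovp and 199.5 in Ctrl cortex, but its log2 fold change by limma was -0.0375.

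For low genes the library values could be recovered from the group means, and the letters A, B and C name these libraries within each group. Cacna1s, the L-type pore of skeletal muscle, had 17.9, 18.8 and 24.8 in Ovp libraries, against 11.2, 7.56 and 15.4 in Ctrl libraries. All 3 Ovp libraries were above the Ctrl libraries. Its log2 fold change by limma was 0.83 ± 0.34 (SE, n = 3 per group), with an unadjusted p of 0.0322 and an adjusted p of 0.999, so it did not pass. In the authors' deposited table its p was 0.0753. The antisense gene Gm37759 overlaps 19.98% of the exon length of Cacna1s, and reads from it cannot be told apart. It was listed at 0 in Ovp and at 2.09 in Ctrl cortex. Cacna1f, the L-type pore of the retina, had 13.9, 13.2 and 18.6 in Ovp libraries, against 20.4, 11.9 and 17.6 in Ctrl libraries, and the groups overlapped.

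The α2δ gene Cacna2d4 had 55.4, 50.8 and 28.97 in Ovp libraries, against 41.7, 44.3 and 41.9 in Ctrl libraries. The Ovp libraries lay on both sides of the Ctrl libraries, and Ovp C was the lowest. Cacng6, a γ gene of muscle, had 15.5, 22.6 and 27.9 in Ovp libraries, against 22.4, 31.3 and 29.8 in Ctrl libraries, which overlapped. Cacng5, a γ gene, had 197, 134 and 272 in Ovp libraries, against 199.6, 229 and 169.8 in Ctrl libraries, which also overlapped. None of these 3 genes passed the threshold by limma.

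Proteins that bind or follow these channels also gave no call. Of 26 partners, which include release-site scaffolds and thrombospondins, 6 were higher and 20 lower, with a median log2 fold change of -0.06 and 0 with p under 0.05 before adjustment in the authors' deposited table. Of 22 genes of calcium stores and extrusion, 7 were higher and 15 lower, with a median of -0.08 and 0 with p under 0.05 before adjustment in the authors' deposited table. Atp2b2 and Atp2b1, which encode calcium pumps of the cell membrane, were at 21418 and 20176 in Ovp cortex, against 23421 and 21187 in Ctrl cortex. Of 14 genes that carry calcium signals to the nucleus, 2 were higher and 12 lower, with a median of -0.05 and 0 with p under 0.05 before adjustment in the authors' deposited table. For comparison, 57.8% of genes whose mean was 100 or more had the lower value in Ovp cortex. So did 1999 of the 2799 genes in the range of means of the subunit genes, where the median log2 fold change was -0.0365. Camk2a was at 63088 in Ovp and 66769 in Ctrl cortex, and Ppp3ca, a calcineurin subunit gene, at 29713 in Ovp and 30402 in Ctrl cortex.

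Library values were recovered for 22 of the genes in these lists, 20 of them averaging 10 or more, and the 3 Ovp libraries did not overlap the 3 Ctrl libraries for 4 of the 20. The same held for 7.14% of all 9786 recovered genes averaging 10 or more. The 4 genes, named after their values were seen, were Cacna1s, Gem, Thbs3 and Orai3. Gem, a small GTPase that binds β subunits and inhibits these channels, had 42.4, 30.1 and 35.2 in Ovp libraries, against 23.4, 23.8 and 25.4 in Ctrl libraries. Thbs3, a thrombospondin, had 381, 359 and 387 in Ovp libraries, against 286, 336 and 334 in Ctrl libraries. Orai3, a store-operated channel gene, had 269, 272 and 286.6 in Ovp libraries, against 343, 287.3 and 286.7 in Ctrl libraries, where the nearest libraries differed by less than the worth of 1 read. Ryr1, the calcium release channel of skeletal muscle, had 459.6, 406 and 397 in Ovp libraries, against 290.2, 404 and 354 in Ctrl libraries, and the groups overlapped. By limma the 4 genes without overlap had an adjusted p of 0.999, and limma called 0% of the 9786 genes at an adjusted p under 0.05 and 2.13% at an unadjusted p under 0.05.

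**Figure D5:**
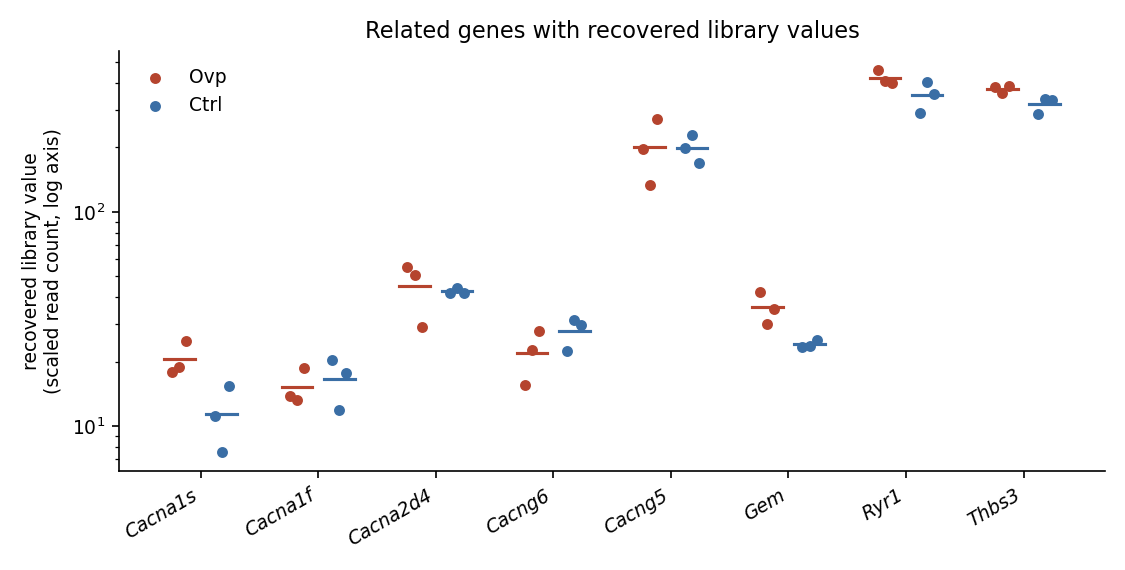
Recovered library values (scaled read count, log axis; 3 points per group, lines for the mean) of the other subunit genes averaging 10 or more, and of Gem, Ryr1 and Thbs3, which were picked after their values were seen. The Ovp points of Cacna1s, Gem and Thbs3 lie above all Ctrl points, and those of the other genes overlap them. Orai3, whose Ovp values lay below all Ctrl values, is not drawn.

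Markers of some cell types leaned one way between the groups and those of others were mixed. Among the listed markers only Neurod6 and Slc17a6 had p under 0.05 before adjustment in the authors' deposited table. All 6 interneuron markers had lower Ovp means, with a sum of 11987 in Ovp and 13237 in Ctrl cortex, and log2 fold changes from -0.21 for Sst to -0.03 for Slc32a1. All 6 excitatory neuron markers were also lower, with a sum of 101969 in Ovp and 107999 in Ctrl cortex. Most of that sum was Camk2a, which also stands in the list of genes that carry calcium signals to the nucleus. The 6 include Neurod6, the gene whose locus carries Nex-Cre, at 1199 in Ovp and 1942 in Ctrl cortex. With Nex-Cre in Ovp mice only, its presence at this locus and stabilised β-catenin cannot be told apart in the Neurod6 value. All 4 oligodendrocyte markers were higher, with a sum of 72164 in Ovp and 67295 in Ctrl cortex. All 3 striatal markers were higher, with a sum of 2373 in Ovp and 2158 in Ctrl cortex. Of 3 thalamic markers, Prkcd and Rgs16 were higher and Slc17a6 lower, with a sum of 810 in Ovp and 894 in Ctrl cortex. All 3 choroid plexus markers were lower, with a sum of 129 in Ovp and 299 in Ctrl cortex, a difference of -56.9%. Most of that sum was Ttr, the thyroid hormone carrier transthyretin, at 122 in Ovp and 289.5 in Ctrl cortex. The authors' deposited table gave it an unadjusted p of 0.449. Folr1 was at 3.29 in Ovp and 5.25 in Ctrl cortex, and Kcne2 at 3.77 in Ovp and 3.93 in Ctrl cortex. Astrocyte markers were mixed (2 higher, 2 lower, log2 fold changes from -0.13 to 0.05), as were microglia markers (3 higher, 1 lower, -0.10 to 0.10). Endothelium markers (2 higher, 1 lower, -0.12 to 0.10) and layer 4 and upper layer markers (1 higher, 2 lower, -0.12 to 0.09) were mixed too. The part of these cell types in the values of Cacna1i, Cacna1d and the other subunit genes was not tested.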

How the data were processed

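Per the labels' protocols, Trizol was used to extract the RNA and a TruSeq RNA kit to make libraries. The submitters' processing notes name Bowtie2 2.0.6 and TopHat2 2.0.9. The counter, strand setting, annotation and differential test are not stated in the sources used here. The authors deposited 1 signal value per gene and group, which by its values is a mean of scaled library counts, and beside it the p-value of their test, raw and adjusted. The deposited fold change column was not used, because it held spreadsheet errors, and log2 ratios were recomputed. The deposited adjusted p-values matched the Benjamini-Hochberg method within 0.00025. Genes were called at an adjusted p under 0.05. Symbols were found for 46488 of 47794 rows. Exon lengths and overlaps came from GENCODE M21.

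Library values were recovered by finding the only combination of whole reads that gave a group mean to its 10 significant digits. This was done for Ovp means up to 450 and Ctrl means up to 1000. Above 100 in Ovp and 500 in Ctrl, library values were searched within 2-fold of the mean. Scaling factors were 1.23, 1.06 and 0.966 in Ovp and 0.982, 0.926 and 0.907 in Ctrl libraries A, B and C, which have no replicate number. limma 3.58.1 (R 4.3.3) was fitted with a trend to log2 of the value plus 1 for 9786 genes averaging 10 or more. On simulated data 100% of the single combinations were right, and limma found 83.5% of 200 genes changed 2-fold among 9786. Each simulation gave all genes the same relative spread between libraries beyond counting. Means with a library outside the 2-fold window were thus hardly tested. Some recovered genes spread more than simulated, such as Thbs1 with an SD of 39.8 around 98.4 in Ovp, and for these the 83.5% need not hold. Counting errors and reads cover counting only.

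The genes and lists were chosen with earlier results of these data known. Named genes were the 10 subunit genes and, in each other list, those with an authors' p under 0.05 before adjustment and the 2 with the highest mean. Fits on recovered libraries were planned for the 10 genes, could not be made for them, and were made for related genes instead.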

Additional observations from a re-analysis of the deposited data

How the results depend on the processing

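No subunit gene was called at an adjusted p under 0.1 or an unadjusted p under 0.05 by the authors' deposited p-values. With 1 added to both means, with both columns scaled to the same sum (a shift of 0.0318 in log2) or with centring on the median of genes averaging 100 or more, 9 of the 10 genes kept the sign of their log2 fold change. The exception was Cacna1e, at 0.0162 with equal sums and 0.00194 with centring. The median of the 10 was 0.0293 with equal sums and 0.0150 with centring, and their mean was -0.0110. No paired analysis was possible because the deposited columns and the recovered libraries carry no replicate number. A minimum mean of 100 kept all 10 genes, 5 of them lower in Ovp cortex. The settings planned for recovered libraries (leaving out a library, another pseudocount, filter, scaling or variance model) could not be run for the 10 genes, whose library values were not recovered.

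For related genes these settings were chosen after seeing the data. limma called 0 genes in every setting but one, with 1 call when no minimum mean was set. The number with an unadjusted p under 0.05 was 208, and it was 706 with no minimum mean, 328 without the trend, and between 150 without Ctrl library A and 368 without Ctrl library C when 1 library was left out. The log2 fold change of Cacna2d4 was 0.0257, and ranged from -0.147 without Ovp library A to 0.309 without Ovp library C, with -0.0855 without Ovp library B. That of Cacng5 was -0.0375, and ranged from -0.285 without Ovp library C to 0.226 without Ovp library B, with 0.0669 without Ctrl library B. That of Cacna1f was -0.104, and ranged from -0.315 without Ctrl library B to 0.0503 without Ctrl library A. The causes were not tested.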
